A study of Spermophilus dauricus with 30 samples.

Results

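The soleus of hibernating Daurian ground squirrels (*Spermophilus dauricus*) was set against the soleus of summer active animals. The members are the 6 libraries labelled SOL in hibernation (HIB) and in summer activity (SA), chosen by their labels from 30 libraries in all. Of 27394 identifiers in the count table, 16443 had enough counts in the 15 SOL libraries to be tested. The full study covers 5 states of the yearly cycle and 2 muscles, SOL and EDL, the usual abbreviations of soleus and extensor digitorum longus, with 3 libraries in each of 10 groups. Beside HIB and SA, the other SOL groups are PRE (before hibernation), IBA (arousal between torpor bouts) and POST (after hibernation). All groups are labelled wild type and carry the same treatment label naming hibernation, the summer animals included, so the state was taken from the sample titles. The labels used here give no age, body temperature or number of animals, and the replicates are numbered only. p-values therefore measure the spread between these libraries.

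The soleus is a postural muscle of the lower hind leg, rich in slow, oxidative fibres in most mammals. In ground squirrels torpor brings low body temperature and long immobility, and it is broken at intervals by arousals during which the animal warms up. Hibernators are known for losing little muscle over such a season, whereas an immobilised limb of other mammals wastes. Plain numbers make up 26378 of the identifiers, the other 1016 begin with a text prefix, and no gene name stands beside any of them. Changes are therefore described by abundance, size, spread and standing in the other states, with 4 identifiers followed by number. The labelled tissue was not checked against marker genes here. In bulk RNA of this kind, fewer cells of a type and less RNA per cell cannot be told apart.

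The 6 libraries held 31442362 to 37240173 counts and had counts for 18629 to 19018 identifiers. Levels are CPM, counts relative to a library's total after TMM scaling, and log2 CPM has a prior count of 2. Across identifiers, log2 CPM correlated at 0.968 to 0.973 between HIB libraries and at 0.957 to 0.976 between SA libraries. Between a HIB and an SA library the correlation was 0.924 to 0.955, below every value within a group. SA replicate 1 stood somewhat apart from the other 2 SA libraries, with root mean square differences of 0.850 and 0.817 log2 units, against 0.625 between replicates 2 and 3. Among the other SOL libraries, POST replicate 1 stood farthest from both groups, at a mean difference of 1.14 from HIB and 1.39 from SA. The other 8 lay between 0.757 and 0.883 from HIB and between 0.827 and 0.966 from SA, each nearer to HIB on these means. The mean for SA includes SA replicate 1, and the order without it was not tested. POST replicate 1 is in neither group, but it shares the estimate of spread, so counts are also given without it.

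In HIB, 269 identifiers (1.64% of those tested) were higher and 322 (1.96%) were lower than in SA, together 3.59%. The test was the quasi-likelihood F test of edgeR over all 15 SOL libraries, with an adjusted p under 0.05. The changes ran from modest to very large: 9 of the higher and 1 of the lower identifiers changed less than 1.5-fold, 109 and 67 changed between 1.5-fold and 2-fold, and 89 and 152 between 2-fold and 4-fold. Between 4-fold and 8-fold were 38 higher and 52 lower identifiers, and past 8-fold were 24 and 50. The middle 50% of log2 fold changes ran from 0.79 to 1.83 in the higher identifiers and from -2.29 to -1.05 in the lower ones. The lower identifiers thus had more members in each size band above 2-fold. The smallest change called was 0.55 on the log2 scale among the higher identifiers and -0.54 among the lower ones.

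Some of the lower identifiers were not detected in hibernation. With 0 counts in all 3 HIB libraries were 3 of the tested identifiers, of which 2 were called, against 2 with 0 counts in all 3 SA libraries, of which 0 were called. The first of the called pair had 21 to 48 counts in the SA libraries and was at least 29.5-fold lower in HIB, and the second had 15 to 18 and was at least 14.3-fold lower, set against a floor of 3 counts over the HIB libraries. The median of the lower identifiers was -1.47 on the log2 scale, also with these at their bound. Mean HIB counts of at most 10 were found for 48 of the lower identifiers, and mean SA counts of at most 10 for 32 of the higher ones, so the sizes of these rest on few reads.

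The calls lay near the threshold. At an adjusted p of 0.1 edgeR called 1804 identifiers (11%), 836 higher and 968 lower in HIB, and at 0.01 it called 2 (0.0122%), both lower. At an unadjusted p under 0.05 there were 3940, or 24%, of all tested. A further 2222 identifiers differed more than 2-fold without passing, and in 784 of these the 3 HIB and 3 SA libraries overlapped. Fits that left out 1 library tested 16686 to 16766 identifiers. Without POST replicate 1 the count rose to 1616, 663 higher and 953 lower, and held all 591 of the calls. It was 1116 without POST replicate 3, and 350, 379 and 330 without PRE replicate 1, PRE replicate 2 and IBA replicate 1. Without HIB replicate 1, 2 or 3 it was 68, 6 or 26, and without SA replicate 1, 2 or 3 it was 75, 179 or 12. Of the 591 identifiers, 397 were called in none of these last 6 fits and 4 in all of them, 1 higher and 3 lower, although 2 libraries in a group also give less power.

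**Figure D1:**
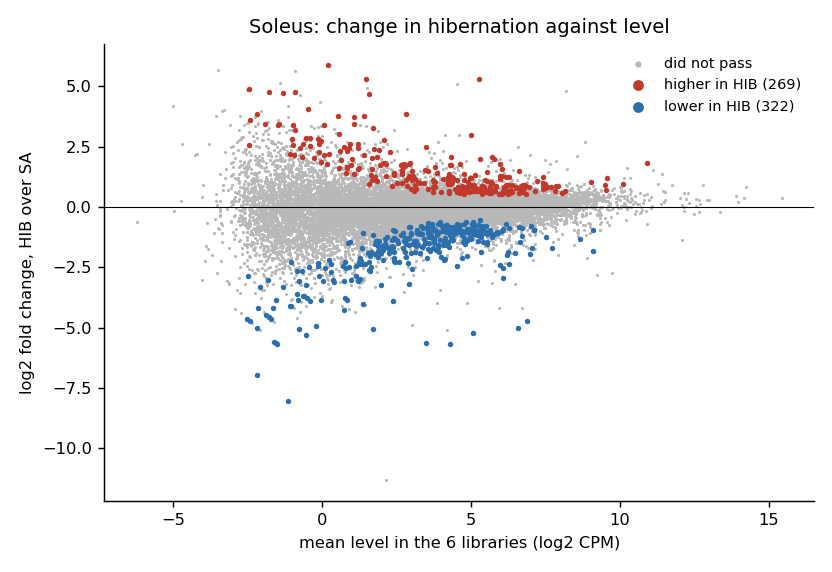
Each point is 1 of 16443 identifiers in soleus, with its mean level in the 6 libraries in log2 CPM on the horizontal axis and its log2 fold change, HIB over SA, on the vertical axis. The 269 identifiers called higher (red) and 322 called lower (blue) lie at small changes only where levels are high. Among called identifiers with counts in HIB the largest fall is -5.67, against a largest rise of 5.90. Any larger fall, down to -8.02, belongs to an identifier without counts in HIB, so its size is not measured.

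The balance between rises and falls moved with the scaling, with single libraries and with the fit. With TMM scaling, 45.5% of the called identifiers were higher in HIB and the median log2 fold change of all tested was -0.02. With library totals alone, a choice made after the data were seen, that median was -0.16, and 211 identifiers were called, 50 higher and 161 lower, so 23.7% of calls were higher. Without HIB replicate 1 the balance turned, to 43 higher and 25 lower, and with all 30 libraries in the fit it was 795 higher and 768 lower. Without SA replicate 1 it was 14 higher and 61 lower. TMM factors ran from 0.937 to 1.03 in HIB and from 1.06 to 1.12 in SA. The counts of higher and lower identifiers thus give no direction to the muscle's RNA as a whole.

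Identifiers were split into abundance classes by their mean CPM over the 15 SOL libraries. Calls were found at all levels, with 2.84% of 2610 identifiers under 1 CPM, 3.82% of 5083 at 1 to 10 CPM and 3.93% of 7071 at 10 to 100 CPM. In the higher classes 2.72% of 1582 identifiers at 100 to 1000 CPM and 2.06% of 97 at 1000 CPM or more were called. The direction changed with level. Below 1 CPM 31 were higher and 43 lower in HIB, at 1 to 10 CPM 75 and 119, and at 10 to 100 CPM 129 and 149. At 100 to 1000 CPM 32 were higher and 11 lower, and at 1000 CPM or more 2 were higher and 0 lower. The same shift stood in all identifiers of a class, called or not: 44.7%, 42.0%, 50.9%, 66.8% and 80.4% of the 5 classes, from rarest to most abundant, had a positive fold change.

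The shift was looked for in each library. In the most abundant class the median log2 difference from the SA mean was 0.14, 0.47 and 0.27 in HIB replicates 1, 2 and 3. The SA libraries, each set against the mean of the other 2, lay at -0.24, 0.13 and 0.15. Leaving a library out of its own reference makes its distance larger than from the mean of all 3, which was used for HIB. The distance from the mean of all 3 is 2/3 of that from the mean of the other 2. On the reference of HIB, SA replicates 2 and 3 would thus stand below the 0.14 of HIB replicate 1. The class was not highest in HIB: PRE lay at 0.42, 0.47 and 0.48, IBA at 0.02, -0.01 and 0.11, and POST at 0.87, 0.42 and -0.20, the highest and the lowest of these 9 libraries both being POST. At 100 to 1000 CPM the HIB libraries lay at 0.14, 0.19 and 0.16 and the SA libraries at -0.07, -0.02 and 0.07, with no overlap. Here too HIB was not highest: PRE lay at 0.18, 0.19 and 0.24, IBA at 0.05, 0.04 and 0.09, and POST at 0.53, 0.12 and -0.06. At 1 to 10 CPM the HIB libraries lay at -0.12, -0.15 and -0.11, and the SA libraries at -0.01, 0.04 and -0.05, again with no overlap. In this class PRE lay at -0.08, -0.10 and -0.16, IBA at -0.03, -0.05 and -0.12, and POST at -0.32, -0.07 and 6.2e-05, so low values were not particular to HIB. Under 1 CPM HIB lay at -0.13, -0.09 and -0.12 and SA at -0.17, 0.23 and -0.05, and the groups overlapped. With library totals the class medians were -0.30, -0.29, -0.13, 0.03 and 0.14 from rarest to most abundant, in the same order and with the classes under 10 CPM below the -0.16 of all identifiers. The single libraries then still did not overlap at 1 to 10 CPM, but at 100 to 1000 CPM they did, at 0.06, -0.02 and 0.02 in HIB and -0.004, -0.03 and 0.02 in SA.

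The share of all counts held by the 50 most abundant identifiers of a library was 27.4%, 33.5% and 31.6% in HIB and 24.5%, 30.3% and 28.6% in SA. The groups overlapped, with means of 30.8 ± 3.09% in HIB and 27.8 ± 2.97% in SA (SD, n = 3 each; exact two-sided permutation test, p = 0.3). With 3 libraries against 3 this test cannot go below 0.1. The number of identifiers with a count was 18694 ± 64.5 in HIB and 18768 ± 217 in SA (SD, n = 3 each; exact two-sided permutation test, p = 0.8).

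**Figure D2:**
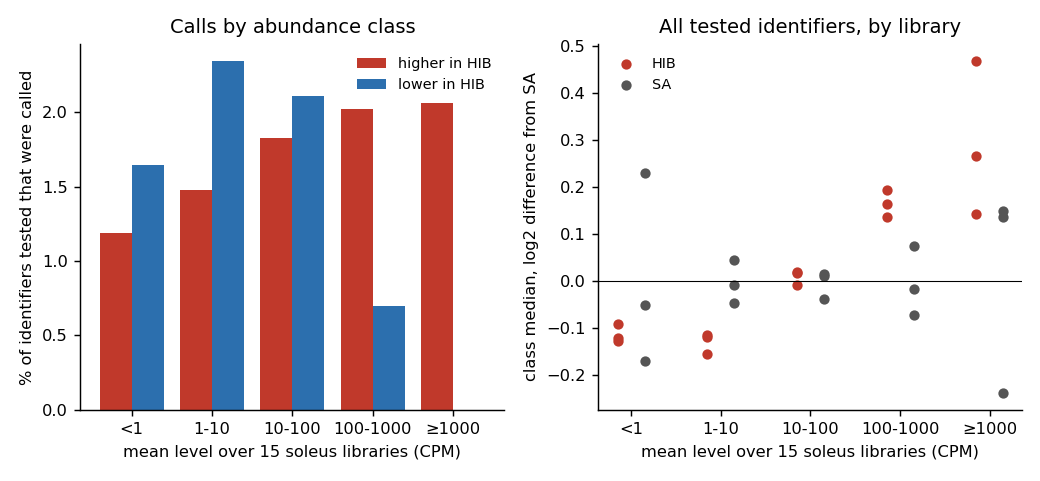
Left, the percent of tested identifiers called higher (red) or lower (blue) in HIB in 5 classes of mean CPM. Right, the median log2 difference of all tested identifiers of a class from SA in each HIB library (red) and in each SA library against the other 2 (grey): HIB lies below 0 in the rare classes and at 0.14 to 0.47 in the most abundant one.

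The smallest change that passed depended on the level. Under 1 CPM no rise below 2.04 and no fall smaller than -2.18 on the log2 scale was called, while at 100 to 1000 CPM rises from 0.56 and falls from -0.80 passed. The median standard error of the log2 fold change fell along the classes from 0.75 under 1 CPM to 0.39 at 1 to 10 CPM and 0.22 at 10 to 100 CPM, and was 0.23 and 0.29 in the upper 2 classes. Median rises of called identifiers were 2.87, 1.73, 0.85, 0.84 and 1.39 in the 5 classes, the last from 2 identifiers. Median falls were -3.85, -1.74, -1.05 and -1.33 in the first 4. Rare identifiers thus entered the calls only with large changes.

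The spread between libraries was similar in the 2 groups. The median SD of log2 CPM over identifiers was 0.256 in HIB and 0.277 in SA, and 46.6% of identifiers varied more in HIB. SDs above 1 log2 unit were found for 869 identifiers in HIB and 1157 in SA. By class the median SD was 0.616 in HIB and 0.620 in SA under 1 CPM, 0.328 and 0.347 at 1 to 10 CPM, and 0.187 and 0.198 at 10 to 100 CPM. The order could turn with 2 libraries in a group: without SA replicate 1 the median SD in SA was 0.158. Without HIB replicate 1 or 2 that in HIB was 0.195 or 0.194. Values from 2 libraries are lower in general.

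The called identifiers stood well clear of that spread, as the test asks. The difference between the HIB and SA means was a median of 4.90 times the pooled SD in the higher identifiers and 4.55 times in the lower ones, against 1.26 times over all tested. The lowest ratio among the calls was 1.91. No overlap between HIB and SA was found in 589 of the 591, and 36.9% of all tested identifiers met this condition too. In the higher identifiers the median SD was 0.204 in HIB and 0.212 in SA, and in the lower ones 0.269 and 0.303. Of the higher identifiers 136 of 269 varied more in HIB than in SA, and of the lower ones 139 of 322.

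**Figure D3:**
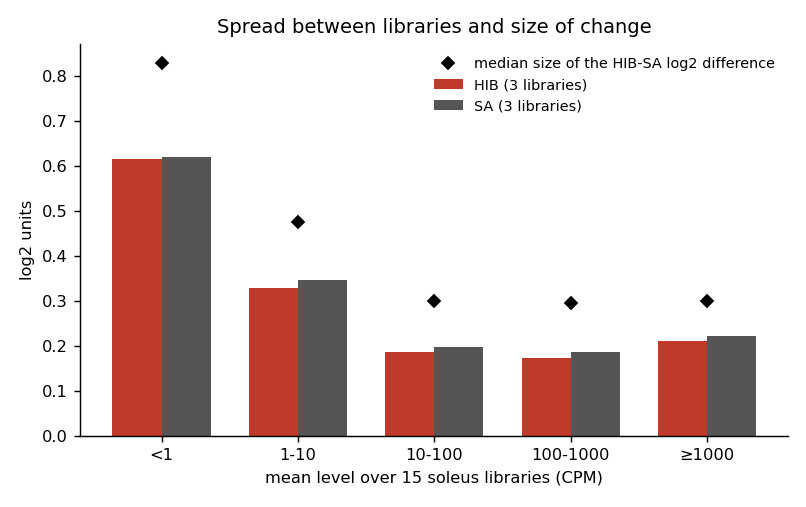
Bars give the median SD of log2 CPM between the 3 HIB libraries (red) and between the 3 SA libraries (grey) in 5 classes of mean CPM, and diamonds the median size of the log2 difference between the groups over all tested identifiers. Both SDs are largest under 1 CPM, at 0.616 and 0.620, and are 0.187 and 0.198 at 10 to 100 CPM. HIB is slightly below SA in every class with all 3 libraries of each group, an order that could turn with fewer.

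Identifiers with a text prefix differed from the plain numbers in direction. Of 883 tested, 29 were called higher and 9 lower in HIB (4.30%), while 240 and 313 of 15560 plain numbers were (3.55%). Of all prefixed identifiers tested 62.4% had a positive fold change, with a median of 0.28, against 48.1% and -0.03 for plain numbers. They were rarer, at a median of 1.69 CPM against 13.4 CPM. The difference was there within classes as well: 64.2% of prefixed and 42.0% of plain identifiers were positive under 1 CPM, and 60.7% and 40.1% at 1 to 10 CPM.

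Libraries of SA differed among themselves by as much in the prefixed identifiers. Their median stood 0.28, 0.30 and 0.25 above the SA mean in the HIB libraries, but the SA libraries, each against the other 2, lay at -0.28, 0.29 and -0.01. Leaving a library out of its own reference makes its distance larger than from the mean of all 3, which was used for HIB. The distance from the mean of all 3 is 2/3 of that from the mean of the other 2. On the reference of HIB, SA replicate 2 would thus stand below 0.29 and below all 3 HIB libraries. The other 9 SOL libraries lay between 0.22 and 0.44. The share of counts in prefixed identifiers was 0.549 ± 0.0141% in HIB and 0.527 ± 0.0427% in SA (SD, n = 3 each; exact two-sided permutation test, p = 0.5).

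The called identifiers were then followed through PRE, IBA and POST. Each library's median of the 269 higher identifiers was taken relative to the SA mean. On this log2 scale HIB stood at 1.03, 1.17 and 1.05, which the choice of identifiers fixes. PRE stood at 0.56, 0.49 and 0.58, IBA at 0.74, 0.79 and 0.76, and POST at 0.78, 0.62 and 0.77. All 9 libraries lay between SA and HIB, with PRE lowest and IBA and POST overlapping. The SA libraries lay between -0.09 and 0.06.

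The 322 lower identifiers followed another order. HIB stood at -1.43, -1.44 and -1.39, again fixed by the choice. PRE stood at -0.92, -0.86 and -0.79, IBA at -0.72, -0.87 and -0.73, and POST at -1.37, -0.90 and -0.79. PRE and IBA overlapped, and POST replicate 1 lay close to HIB. The mean of the POST medians was -1.02 with that library and -0.85 without it. All 16443 identifiers together stayed between -0.02 and 0.01 in every one of the 15 libraries. These comparisons share the SA libraries with the calls, so part of the distance from SA comes with the choice. Calls against SA over all identifiers were 9 (0.0547%) in PRE, 19 (0.116%) in IBA and 143 (0.87%) in POST by edgeR.

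**Figure D4:**
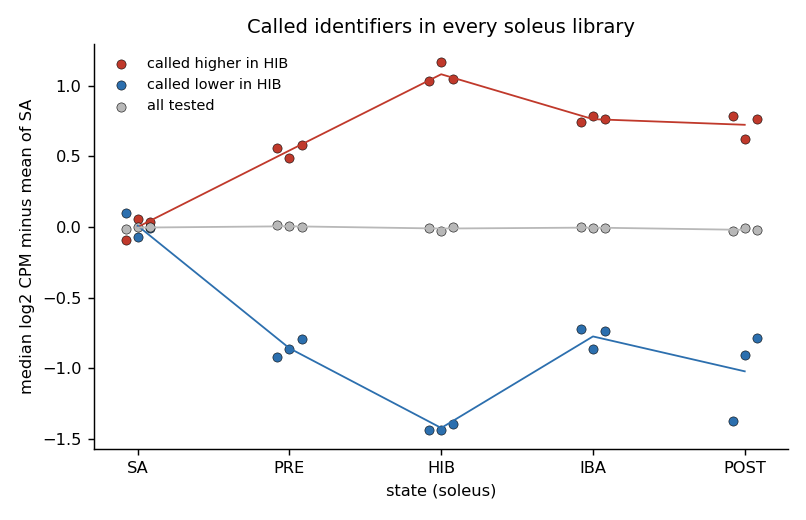
Points give, for each of the 15 soleus libraries, the median log2 CPM minus the mean of SA over the 269 identifiers called higher (red), the 322 called lower (blue) and all 16443 tested (grey), and lines join the state means. The 9 PRE, IBA and POST libraries lie between SA and HIB in both called lists, with POST replicate 1 at -1.37 nearest to HIB in the lower one.

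Each identifier's standing was expressed as the percent of its way from SA (0%) to HIB (100%), from state means of log2 CPM. In the higher identifiers the median was 48.9% in PRE, 71.8% in IBA and 68.0% in POST. In the lower identifiers it was 60.6% in PRE, 53.9% in IBA and 72.4% in POST. Middle ranges were wide: in PRE they ran from 32.3% to 66.1% for the higher and from 33.2% to 83.1% for the lower identifiers. The share of higher identifiers at or above the lowest HIB library was 17.8%, 17.8% and 20.4% in the PRE libraries, 35.3%, 40.9% and 40.5% in IBA and 43.9%, 25.3% and 39.8% in POST. The share of lower identifiers at or below the highest HIB library was 30.1%, 31.1% and 27.95% in the PRE libraries, 18.3%, 27.6% and 21.4% in IBA and 57.5%, 32.9% and 24.5% in POST. IBA libraries thus reached the HIB range more often than PRE libraries in the higher list, and less often in the lower one. As PRE, IBA and POST were compared with the same SA and HIB libraries, these are descriptions without a test.

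HIB was the highest of the 5 states for 211 of the 269 higher identifiers, IBA for 31, POST for 24 and PRE for 3. SA was lowest for 253 of them. HIB was the lowest state for 227 of the 322 lower identifiers, POST for 58, PRE for 25 and IBA for 12, with SA highest for 293. Over all tested identifiers HIB was the highest state for 18.9% and the lowest for 18.7%, but the lists were chosen on HIB and SA, so these counts are not read against it.

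The 8 possible patterns of PRE, IBA and POST, each nearer to HIB or nearer to SA, were counted. All 3 positions rest on the same SA and HIB libraries, which also chose the lists, so the patterns need not be evenly filled. Shares over all tested identifiers are not given, and the counts are descriptions without a test. In 98 of the higher and 112 of the lower identifiers all 3 states were nearer to HIB. In 22 and 39 all 3 were nearer to SA, leaving HIB apart from the other states. PRE near SA with IBA and POST near HIB was the pattern of 81 higher and 36 lower identifiers. PRE and POST near HIB with IBA near SA was that of 9 higher and 58 lower identifiers.

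By abundance the higher identifiers stood in PRE at 43.4% under 1 CPM, 41.7% at 1 to 10 CPM, 51.5% at 10 to 100 CPM and 57.8% at 100 to 1000 CPM. The lower ones stood in PRE at 62.6%, 65.5%, 55.7% and 56.4% in the same classes.

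IBA against PRE uses neither HIB nor SA libraries, so it shows the lists in samples whose levels do not enter the HIB to SA difference. The PRE, IBA and POST libraries did share the filter, the scaling and the estimate of spread behind the calls, so the lists are not independent of them. In IBA 208 of the 269 higher identifiers stood above PRE, or 77.3%, against 51.9% of all tested, with a median log2 difference of 0.23 against 0.02. Of the 322 lower identifiers 146 stood below PRE in IBA, or 45.3%, against 48.1% of all tested, with a median of 0.05. The higher list's median ran from 0.20 to 0.27 over fits that each left out 1 library of PRE, IBA or POST. The lower list's median was 0.003 without IBA replicate 3, 0.11 without IBA replicate 2 and 0.09 without PRE replicate 3. Less the median of all identifiers, the higher list's median was 0.21 both with TMM scaling and with library totals. The lower list's median was 0.03 in both. Single identifiers did not pass: edgeR called 0, or 0%, between IBA and PRE, with 1933 (11.8%) at an unadjusted p under 0.05. DESeq2 called 185 of 16443. Without POST replicate 3, which is in neither state, edgeR called 47 of 16686. Without POST replicate 1 it called 6 of 16745, and without IBA replicate 1 it called 2 of 16734.

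In POST against PRE, also free of HIB and SA libraries, 198 of the 269 higher identifiers stood above PRE, or 73.6%, against 51.7% of all tested, with a median log2 difference of 0.18 against 0.02. Of the lower identifiers 199 of 322 stood below PRE, or 61.8%, against 48.3%, with a median of -0.11. edgeR called 0 (0%) in this comparison, with 1649 (10%) at an unadjusted p under 0.05, and DESeq2 was not run on it. The PRE libraries are shared by these 2 comparisons, so their values are not independent of each other.

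The called identifiers held a small share of the RNA. The 269 higher identifiers summed to 19554, 22542 and 20025 CPM in the HIB libraries, against 9292, 10608 and 10705 CPM in the SA libraries. In PRE they summed to 14370 to 16601 CPM, in IBA to 16136 to 16492 CPM and in POST to 15387 to 17480 CPM. The 322 lower identifiers summed to 4845, 4253 and 4543 CPM in HIB, against 12979, 10231 and 11381 CPM in SA. In PRE, IBA and POST these sums lay between 5477 and 7199 CPM.

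Of the called identifiers, 410 had a mean of at least 5 CPM and no overlap between the groups, and 4 of these were followed, those with the largest difference in CPM and with the smallest p in each direction. Identifier 101959312 had the largest gain in CPM and ranked as number 41 of all tested identifiers in mean level. It stood at 2437, 3451 and 3141 CPM in the HIB libraries, against 647, 904 and 1008 CPM in the SA libraries. The groups did not overlap, as the choice required, and the lowest HIB library was more than 2-fold above the highest SA library. It rose by 1.82 ± 0.24 on the log2 scale (SE, edgeR adjusted p = 0.0101). Its call held in every setting tried at the 0.05 threshold, with log2 fold changes from 1.66 to 1.96 when a HIB or SA library was left out.

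In the other states 101959312 stood at 1734 ± 370 CPM in PRE, 2455 ± 149 CPM in IBA and 1995 ± 280 CPM in POST (SD, n = 3 each). The mean was thus highest in HIB and next in IBA, and all 9 other libraries lay above every SA library. It was called higher than SA in IBA (edgeR adjusted p = 0.0402) and in POST (edgeR adjusted p = 0.0421), and in PRE it stood 1.02 ± 0.23 above SA without passing (edgeR adjusted p = 0.0846).

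Identifier 101971056 had the next smallest p among the higher ones and a tighter spread. It stood at 72.5, 61.3 and 72.8 CPM in HIB, against 34.2, 37.8 and 32.7 CPM in SA, with a wide gap between the groups. It rose by 0.98 ± 0.14 on the log2 scale (SE, edgeR adjusted p = 0.0125), and without SA replicate 3 the adjusted p of edgeR was 0.0535. Its level was 48.3 ± 3.25 CPM in PRE, 63.0 ± 4.31 CPM in IBA and 49.6 ± 5.25 CPM in POST (SD, n = 3 each). PRE and POST overlapped each other and lay between all SA and all HIB libraries, and IBA overlapped HIB. Of the 3 other states IBA was called against SA (edgeR adjusted p = 0.0416).

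Identifier 101964439 had the largest loss in CPM. It stood at 313, 245 and 157 CPM in HIB, against 988, 791 and 770 CPM in SA, without overlap, as the choice required. It fell by 1.83 on the log2 scale, with an SE of 0.31 (edgeR adjusted p = 0.0162). The call was lost without HIB replicate 2, HIB replicate 3 or SA replicate 3, with edgeR adjusted p of 0.0719, 0.0589 and 0.0535. Its level was 422 ± 139 CPM in PRE, 348 ± 104 CPM in IBA and 223 ± 43.5 CPM in POST (SD, n = 3 each). POST stood close to HIB, at -0.10 ± 0.30 on the log2 scale (edgeR adjusted p = 0.974), and was called against SA, at -1.93 ± 0.31 (edgeR adjusted p = 0.0302).

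Identifier 101970218 had the smallest p of all. It stood at 25.9, 20.3 and 30.4 CPM in HIB, against 123, 134 and 132 CPM in SA, so that the lowest SA library was more than 4-fold above the highest HIB library. It fell by 2.34 on the log2 scale, with an SE of 0.22 (edgeR adjusted p = 0.000755), and passed without any 1 of the 15 libraries. Its level was 55.1 ± 8.23 CPM in PRE, 40.7 ± 5.66 CPM in IBA and 26.4 ± 7.96 CPM in POST (SD, n = 3 each). It was called lower than SA in IBA (edgeR adjusted p = 0.0348) and in POST (edgeR adjusted p = 0.000982), and in PRE it stood at -1.23 ± 0.22 (edgeR adjusted p = 0.0601). None of the 4 passed between HIB and PRE, IBA or POST, where the adjusted p of edgeR ran from 0.117 to 0.982. Over all identifiers edgeR called 6 (0.0365%) between HIB and PRE, 2 (0.0122%) between POST and HIB and 0 (0%) between IBA and HIB, the last with 1090 (6.63%) at an unadjusted p under 0.05.

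**Figure D5:**
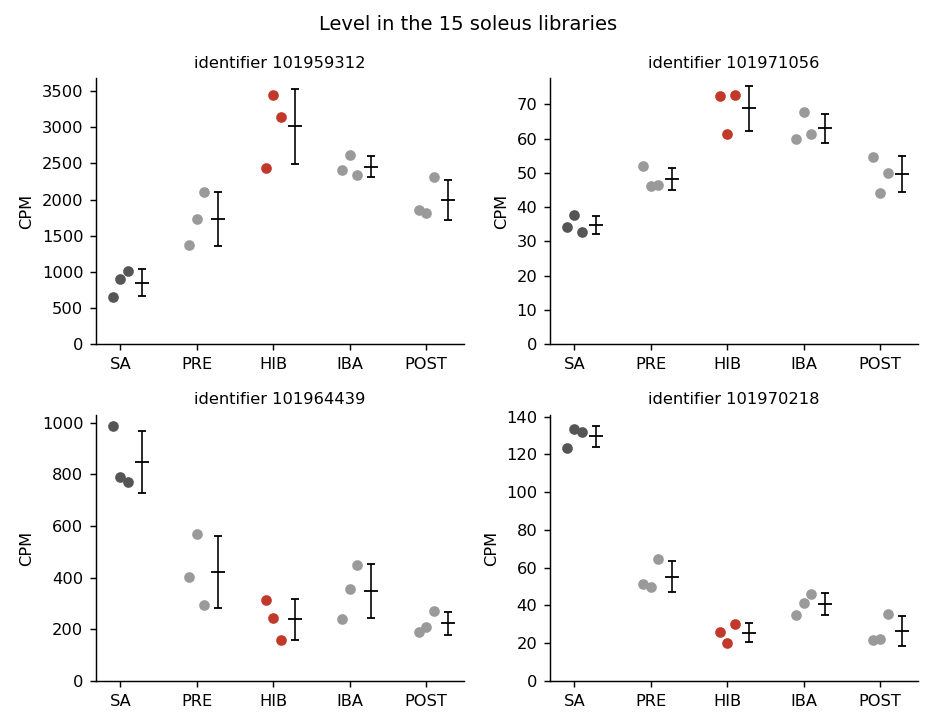
Points give the CPM of 4 identifiers in each of the 15 soleus libraries, by state, with the mean and SD of 3 libraries beside them and axes from 0. In the 2 upper panels HIB is highest with IBA next, and in the 2 lower ones POST lies at the level of HIB.

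In EDL, where edgeR called 4.79% of 16299 identifiers between HIB and SA, the 4 changed the same way. The labels do not say whether SOL and EDL libraries came from the same animals, so EDL is not taken as independent of SOL. Identifier 101959312 averaged 3478 ± 142 CPM in HIB and 1008 ± 38.4 CPM in SA there, and 101970218 averaged 22.9 ± 2.55 CPM in HIB and 112 ± 46.5 CPM in SA (SD, n = 3 each). The log2 fold changes in EDL were 1.79 ± 0.24 for 101959312, 1.26 ± 0.16 for 101971056, -1.39 ± 0.27 for 101964439 and -2.29 ± 0.26 for 101970218 (SE, edgeR adjusted p of 0.00262, 0.00225, 0.0192 and 0.00225).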

How the data were processed

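Skeletal muscle RNA was sequenced in 30 libraries. An AG RNAex reagent served for extraction and an NEBNext Ultra kit for the libraries, per the labels' protocols. The authors deposited 1 table of raw counts per identifier and library. HISAT2 2.0.4 and HTSeq 0.9.1 are named, per the submitters' processing notes. Build, annotation and strand setting were "not given in the sources used here", so counts of overlapping or near-identical genes are uncertain. Groups and replicate numbers come from the sample titles.

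Counts of the 15 SOL libraries were fitted together in R 4.3.3 with edgeR 4.0.16: filterByExpr with a minimum count of 10, TMM scaling, the quasi-likelihood F test and Benjamini-Hochberg adjustment over all 16443 identifiers tested. Of the rest, 6254 had 0 counts in the 6 libraries and 4697 had too few, holding at most 0.0281% of a library's counts. SOL depth was 31442362 to 40237783 counts, so that spread between libraries limits precision, except at low counts. The standard error is the log2 fold change divided by the square root of F.

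Replicate pairs differed by 43.5 to 334 times the degrees of freedom in a chi-square test, so all were kept as separate replicates. Followed identifiers were those called, at 5 CPM or more and without overlap between the groups, with the largest CPM difference and the smallest p in each direction, a repeat passing to the next. Alternatives were DESeq2 1.42.0 (size factors, Wald test), no filter, a replicate block, other sets of libraries, leaving out each library and a prior count of 0.5. Thresholds of 0.1 and 0.01 and library totals without TMM were added after seeing the data. The comparisons and lists were chosen with earlier results of these data known.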

Additional observations from a re-analysis of the deposited data

How the results depend on the processing

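The number of identifiers called between HIB and SA moved with the fit, for causes that were not tested. It was 1959 of 16443 tested with DESeq2's Wald test, 1353 of 15775 with the 6 compared libraries alone and 1563 of 16946 with all 30 libraries. Of these, 590, 530 and 572 were among the 591. It was 428 of 22106 with no filter. Of 16443 it was 615 with DESeq2's size factors, 211 with library totals, and 1804 and 2 at adjusted p thresholds of 0.1 and 0.01. With the replicate block it was 329 of 16443, of which 319 were among the 591. The labels do not pair the states: over 30 pairs of libraries with the same number the median correlation of deviations was -0.003, and between HIB and SA it was 0.16, 0.10 and 0.02. Leaving out 1 library gave 6 to 1616, the highest being without POST replicate 1. Calls in the opposite direction numbered 0 in every setting, but all settings share HIB and SA libraries, so this was largely given in advance. Between IBA and PRE, DESeq2 called 185 of 16443, all 30 libraries gave 16 of 16946, and leaving out 1 library gave 0 to 47.

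Leaving out 1 library, the lists' median distance from SA ran from 0.47 to 0.57 in PRE, 0.70 to 0.79 in IBA and 0.67 to 0.78 in POST for higher identifiers. For lower ones it ran from -0.92 to -0.78, -0.83 to -0.73 and -1.13 to -0.85. The median SD ran from 0.194 to 0.256 in HIB and 0.158 to 0.278 in SA. Size factors or a prior count of 0.5 moved these by less than the spread between libraries. The HIB minus SA difference in the top 50 share ran from 1.41 to 4.75 percentage points around 3.05, and that in prefixed identifiers from 0.00596 to 0.0460 around 0.0217. The median of all identifiers at 10 to 100 CPM, 0.01, changed sign without HIB replicate 1, at -0.003, and with library totals, at -0.13.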
